A study of Mus musculus with 2 samples.

Results

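Non-draining lymph node cells were 3266 of the 12458 CD45-positive single cells deposited for 4 tumour-bearing mice, and were taken as every cell that the deposited cell annotation assigns to the non-draining node. Of these, 753 came from WT1, 961 from WT2, 574 from KO1 and 978 from KO2. All 4 animals were C57Bl6 mice carrying a subcutaneous MC38-OVAdim tumour, a colon carcinoma line that expresses ovalbumin, grown from 500000 injected cells. The controls (WT1 and WT2) had floxed Havcr2 alleles (Havcr2fl/fl), and the other mice (KO1 and KO2) are labelled KO, with Havcr2 as the targeted gene. What removed the floxed part in the KO mice, in which cells, and which exons it spans is not stated in the sources used here, and neither are the mice's ages or which node was taken as non-draining. Nodes were digested with Liberase and sorted for CD45-positive cells with dendritic cells enriched, so a share below is a share of sorted cells and not of the node. Oligo-tagged CD45 antibodies marked each mouse and tissue, and 1 WT and 1 KO mouse shared each of the 2 droplet channels (WT1 with KO1, WT2 with KO2). The question was whether the targeting of Havcr2 went with another cell makeup or another expression within cells in a node that does not drain the tumour. For comparison the tumour-draining node of the same mice held 4671 cells.

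TIM-3, the product of Havcr2, is a checkpoint receptor that restrains T cells, dendritic cells and macrophages, and the series title ties it to inflammasome activation, the caspase-1 pathway that matures IL-1β and IL-18. A lymph node at rest holds mostly naive T and B cells, resident dendritic cells of the cDC1 and cDC2 kinds, plasmacytoid dendritic cells (pDC), which make type I interferon, and mature dendritic cells that have arrived from tissue through CCR7. Type I interferon acts on nearly every cell through its receptor and induces a common set of genes, among them Isg15, a ubiquitin-like protein, the Ifit antiviral proteins, and Irf7, a transcription factor that amplifies interferon production. These interferon-stimulated genes are described at length below, although none passed the main test of KO against WT over all node cells. Their median difference was also nearer 0 without WT2. The promoters of 4 of them are printed (RefSeq on GRCm38.p6, 300 bases each, 5′ to 3′ on the gene's strand). Capitals mark every match to GAAANNGAAA or its reverse complement TTTCNNTTTC, a simplified form of the interferon-stimulated response element, with overlapping matches run together. Isg15 is chr4:156200769-156201068 (minus strand), Ifit1 chr19:34640639-34640938 (plus), Ifit3 chr19:34583279-34583578 (plus) and Irf7 chr7:141266375-141266674 (minus).
Isg15: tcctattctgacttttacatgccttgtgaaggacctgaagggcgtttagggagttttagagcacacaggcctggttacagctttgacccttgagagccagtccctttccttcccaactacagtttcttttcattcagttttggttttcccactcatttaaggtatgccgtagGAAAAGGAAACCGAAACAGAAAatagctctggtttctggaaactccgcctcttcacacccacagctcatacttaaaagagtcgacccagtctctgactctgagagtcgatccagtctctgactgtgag
Ifit1: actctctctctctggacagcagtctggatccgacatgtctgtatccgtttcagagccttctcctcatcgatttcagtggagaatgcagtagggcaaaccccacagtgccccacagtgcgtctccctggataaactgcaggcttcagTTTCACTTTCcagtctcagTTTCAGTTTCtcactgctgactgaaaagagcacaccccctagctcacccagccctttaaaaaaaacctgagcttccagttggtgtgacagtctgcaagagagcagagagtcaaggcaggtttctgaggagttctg
Ifit3: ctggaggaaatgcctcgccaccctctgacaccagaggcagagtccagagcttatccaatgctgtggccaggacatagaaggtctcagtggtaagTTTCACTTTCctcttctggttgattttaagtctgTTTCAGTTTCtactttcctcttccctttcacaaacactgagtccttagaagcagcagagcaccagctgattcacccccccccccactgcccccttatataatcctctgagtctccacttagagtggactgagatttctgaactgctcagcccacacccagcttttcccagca
Irf7: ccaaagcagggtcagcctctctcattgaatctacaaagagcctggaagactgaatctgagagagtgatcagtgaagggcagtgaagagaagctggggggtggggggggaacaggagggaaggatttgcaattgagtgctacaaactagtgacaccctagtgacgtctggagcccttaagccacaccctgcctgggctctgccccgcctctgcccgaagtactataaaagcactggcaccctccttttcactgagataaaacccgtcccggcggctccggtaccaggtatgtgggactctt
Isg15 held 3 overlapping matches, Ifit1 and Ifit3 held 2 each, and the Irf7 window held 0. The motif was found in 1131 of 32851 promoter windows of the same length (3.44%). Of the 16 genes listed as type I interferon response genes, 11 had a promoter in the table and 6 of these held a match (Bst2, Ifi203, Ifit1, Ifit3, Isg15 and Rsad2). A match describes letters in this window only.

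The node samples held 3031124 UMIs (unique molecular identifiers, each 1 captured RNA molecule) in KO1 and 5361853 to 5957716 in the other mice. Cells had a median of 4633 UMIs, with medians per mouse of 5254 and 4643 in WT and 4308.5 and 4412 in KO, and median mitochondrial shares lay between 2.60% and 2.79%. A level below is the mean over the cells of a mouse of UMIs per 10000 UMIs of the cell, and a difference is KO minus WT in log2(level + 0.1), which understates the change of low genes. Of the barcodes of these cells, 34 occurred in both channels, and for 24 of them the copy was a cell of another tissue. Clusters made of at least 95% tumour cells held 15 WT and 3 KO cells of the node. With 2 mice per genotype an exact permutation test cannot go below p = 0.333, so tests across genes used limma, which pools the spread over 4 groups of node samples. These groups hold both nodes of the same 4 mice with no term for the mouse, so the pooled spread rests on samples that are not independent.

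The genotype labels were checked on Havcr2 itself. In cDC1-like cells, the cross-presenting dendritic cells, Havcr2 was at 0.990 (WT1) and 0.918 (WT2) UMIs per 10000 against 0 (KO1) and 0.0132 (KO2). In cDC2-like cells Havcr2 was at 0.142 and 0.243 in WT and 0.0534 and 0 in KO (log2 difference -1.22, adjusted p = 0.850). Both KO mice lay below both WT mice in each of these classes. T cell classes gave no Havcr2 to compare: it was at 0 in all 4 mice in CD4 T-like, CD8 T-like and NK-like cells. Over all cells Havcr2 was at 0.0982 and 0.0571 in WT and 0.00484 and 0.00088 in KO, under the minimum level for the test across genes.

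Cells were placed in 13 classes, the last holding the remaining cells. Classes were named only where marker genes of 1 cell type led the cluster and were otherwise kept by number. The largest gap in makeup was in mature DC-like cells, the dendritic cells marked by Fscn1, Cacnb3 and Ccl22. They were 16.1% (WT1) and 15.2% (WT2) of sorted cells in WT and 11.1% (KO1) and 2.86% (KO2) in KO. Both KO mice lay below both WT mice, and KO2 lay furthest away. The logit difference was -1.59 (SE 0.719), and it did not pass (adjusted p = 0.713 over the 13 classes, exact permutation p = 0.333). Without KO1 the difference was -2.63 and passed (adjusted p = 0.0139), and without KO2 it was -0.56 (adjusted p = 0.342), so its size rests on KO2. Within the dendritic lineage alone, mature DC-like cells were 47.6% and 52.9% in WT, against 45.1% and 16.9% in KO, so the share of the lineage was near WT in KO1 and low in KO2. The draining node of the same mice held 19.6% and 15.7% mature DC-like cells in WT and 4.22% and 1.65% in KO.

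No other class passed either. B-like cells were 18.6% and 20.7% in WT, against 20.2% and 34.5% in KO (logit difference 0.58, adjusted p = 0.987), high in KO2 alone. CD4 T-like cells were 9.43% and 9.78% in WT against 15.9% in KO1 and 7.06% in KO2, 1 KO mouse on each side of WT. CD8 T-like cells were at 21.4% and 21.5% in WT and 24.4% and 23.1% in KO. The resident dendritic classes were close: cDC2-like cells made up 5.05% and 6.35% in WT and 4.88% and 6.65% in KO, and pDC-like cells 6.24% and 3.33% against 5.57% and 3.37%. In pDC-like cells the channel, not the genotype, ordered the shares of sorted cells. Within the dendritic lineage the pDC-like share was 18.5% (WT1), 11.6% (WT2), 22.5% (KO1) and 19.9% (KO2), with both KO mice above both WT mice. That difference did not pass (logit difference 0.64, adjusted p = 0.601). Cells in no named or numbered class were 2.79% and 3.23% in WT, against 1.05% and 2.04% in KO (adjusted p = 0.713).

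**Figure D1:**
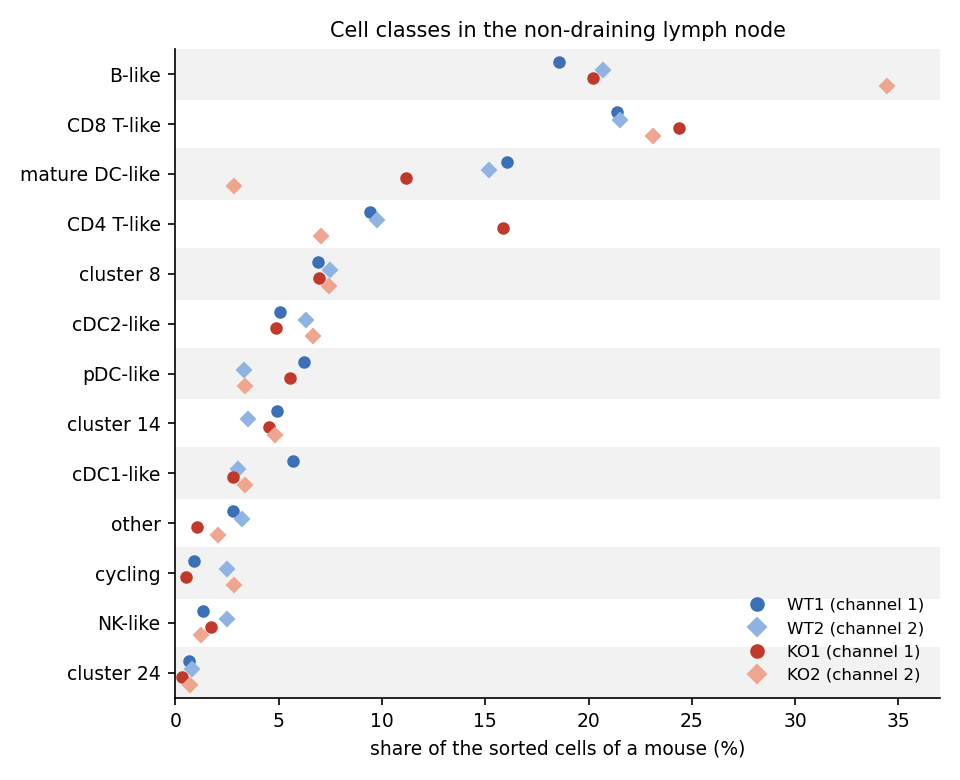
Share of the sorted non-draining node cells of each mouse (x axis, percent) in each of 13 cell classes (y axis), 1 point per mouse, circles for channel 1 and diamonds for channel 2. Mature DC-like cells were 16.1% and 15.2% in WT against 11.1% and 2.86% in KO, and KO2 stands apart at 34.5% B-like cells.

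Marker genes read over all cells without clusters were summed as well. The summed level of 7 mature DC markers (UMIs per 10000) was 24.6 and 20.0 in WT against 16.8 and 8.54 in KO, with both KO mice below both WT mice for 6 of the 7 genes. Macrophage markers summed to 3.69 and 2.93 in WT and 1.69 and 1.33 in KO, with 7 of 7 genes lower in both KO mice. Across all tested genes 17.6% lay that way and 18.5% the other way. No marker present in the matrix was at 0 over the node, but the matrix held 0 genes of the mast cell and basophil list and 1 of the erythroid and platelet list.

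Over all node cells, 1 of 9023 genes passed (0.0111%), against 812 at an unadjusted p under 0.05 by limma. Arg1, the enzyme arginase 1 of tissue-repair macrophages, was at 0.231 (WT1) and 0.170 (WT2) UMIs per 10000 and at 0.0240 (KO1) and 0.0307 (KO2). It fell (log2 difference -1.23, SE 0.127, adjusted p = 0.0286), and the call was lost in the fit blocked by channel (adjusted p = 0.0642) and without WT1 (0.609), WT2 (0.155) or KO2 (0.306). It was also lost with no low-value filter, with only the 4 non-draining samples, with summed UMIs and with the mean of log values. Without the cells outside named and numbered classes 0 genes passed. Arg1 was read largely from those cells, where it was at 6.21 and 3.44 in WT and 0 in both KO mice, over 21 and 31 WT cells and 6 and 20 KO cells. Macrophage markers moved with it, as given above, and their part in the result was not tested.

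Blocking by channel gave 4 genes past the threshold, and all were lower in KO. This fit has 1 residual degree of freedom, so its p-values, here and below, rest mainly on the spread that limma pools over genes. C1qa, C1qb and C1qc encode the 3 chains of complement C1q, made by macrophages. C1qb was at 0.755 and 0.553 in WT and 0.158 and 0.0684 in KO (log2 difference -1.84, SE 0.125, adjusted p = 0.0190 with the block), and C1qa (-1.47) and C1qc (-1.44) had adjusted p = 0.0353 each. The fourth, Cst3, a protease inhibitor abundant in dendritic cells, was at 31.9 and 26.6 in WT and 18.4 and 16.1 in KO (log2 difference -0.76, adjusted p = 0.0190 with the block). Genes next in order of p did not pass. They included Cxcl9, a chemokine that draws T cells (0.870 and 0.653 in WT, 0.215 and 0.245 in KO, adjusted p = 0.316), Aif1, a myeloid cytoskeletal protein (1.01 and 0.963 against 0.484 and 0.445, adjusted p = 0.316), and Cd40, a costimulatory receptor of antigen-presenting cells (1.06 and 0.833 against 0.547 and 0.437, adjusted p = 0.359). On the other side stood Nfatc3, a transcription factor of activated lymphocytes (0.564 and 0.646 against 0.932 and 0.95), and Fkbp4, a chaperone partner (0.881 and 0.873 against 1.21 and 1.41). Without KO1 183 genes passed, of which 157 were lower in KO.

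To separate makeup from change within cells, each difference over all cells was split. One part holds the makeup of every mouse at common class weights (23.5% B-like, 22.6% CD8 T-like, 11.3% mature DC-like and so on over 10 classes, with the cycling, cluster 24 and remaining cells pooled as other cells, 33 and 63 in WT and 11 and 55 in KO). The remainder is what the shares of the classes add. The mix of clusters inside the pooled other cells was not held fixed. The makeup part was the larger for 3406 of 9023 genes (37.7%) and for 78 of the 100 genes with the largest difference in UMIs. Tmsb4x, the gene of an actin-binding peptide, had a KO minus WT difference of -30.3 UMIs per 10000 as sorted and 2.51 at the fixed makeup. For Cst3 the difference was -12 as sorted, while at the fixed makeup its levels were 23.5 and 23.6 for WT and 21 and 26.2 for KO. Crip1, a small zinc-binding protein, had -7.23 as sorted and -0.12 at the fixed makeup. In the other direction Rps24, a ribosomal protein, had 10.5 as sorted and 1.70 at the fixed makeup, and Cd74, the invariant chain of MHC class II, 17.4 and 7.51.

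Gene lists differed in how much of their pattern the makeup carried. For DC maturation genes the makeup part was the larger for 11 of 15, for MHC class I and its loading pathway for 8 of 13, and for cytosolic ribosomal proteins for 76 of 94. For type I interferon genes it was the larger for 0 of 15, for immediate early and heat shock genes for 2 of 16 and for glucocorticoid-responsive genes for 0 of 7. DC maturation genes had a median log2 difference of -0.73 over all cells and -0.21 at the fixed makeup, where the median of all genes was 0.01 and 0.00. Fscn1, the actin-bundling fascin of migrating dendritic cells, was at 13.8 and 9.21 in WT and 7.03 and 1.89 in KO as sorted, and at 9.84 and 6.87 against 7.15 and 7.07 at the fixed makeup. Of MHC class I genes both KO mice lay below both WT mice for 12 of 13 as sorted (background 17.6%) and for 7 of 13 at the fixed makeup (background 14.7%). B2m, the light chain of MHC class I, was at 27.7 in both WT mice and 23 and 18.8 in KO as sorted, and 24.8 and 25.4 against 23 and 22.6 at the fixed makeup. None of these list members passed.

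**Figure D2:**
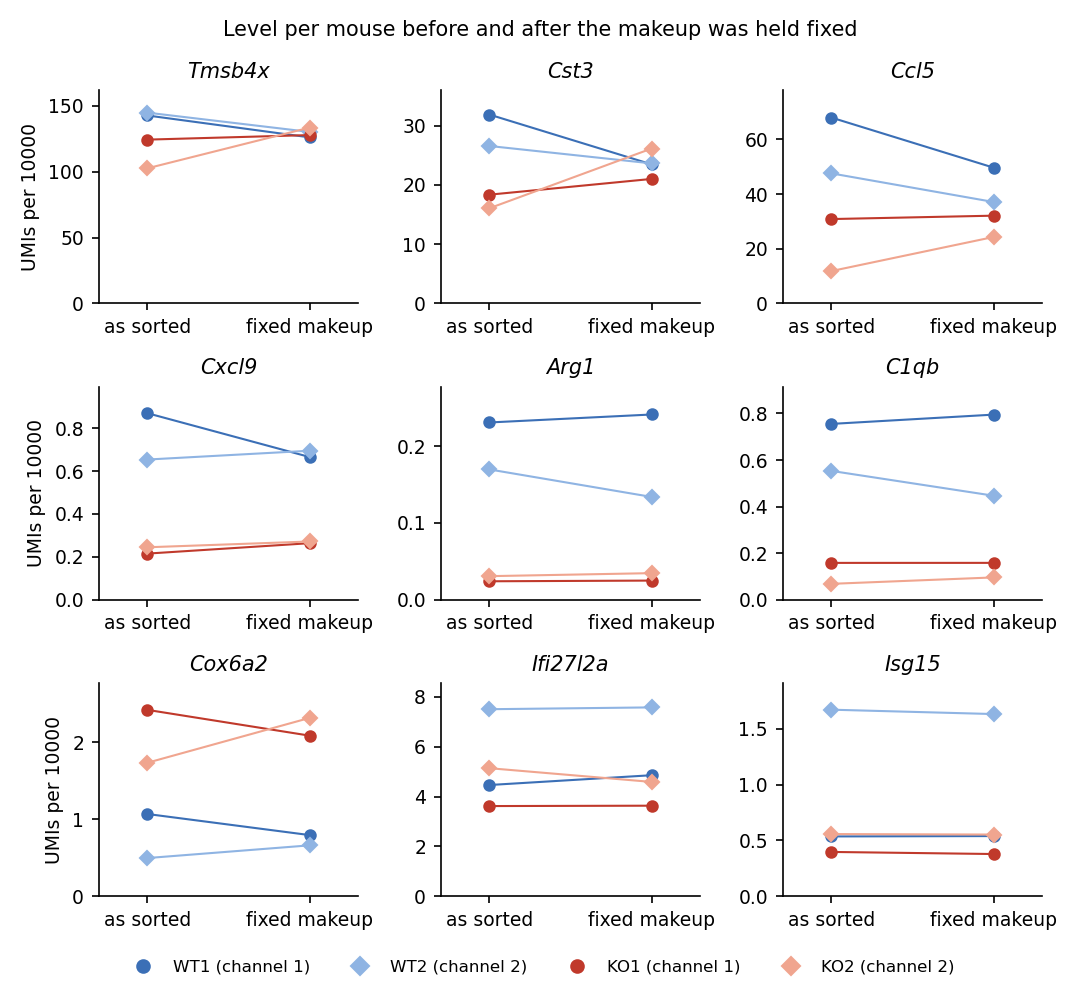
Level per mouse of 9 genes (y axes, mean UMIs per 10000, from 0) over all sorted cells and with the class makeup held fixed, lines joining the values of a mouse. The gap between genotypes closes for Tmsb4x and Cst3, is smaller for Ccl5, and remains for Cxcl9, Arg1, C1qb and Cox6a2, while Isg15 overlaps both ways and Ifi27l2a overlaps as sorted only.

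At the fixed makeup 3 of 9029 genes passed (0.0332%), against 398 at an unadjusted p under 0.05. Cox6a2, a subunit of cytochrome c oxidase that marks pDC, rose (log2 difference 1.48, SE 0.131, adjusted p = 2.22e-04), from 0.792 (WT1) and 0.659 (WT2) to 2.08 (KO1) and 2.31 (KO2). Cxcl9 fell (log2 difference -1.08, SE 0.117, adjusted p = 0.00126) between 0.665 and 0.695 in WT and 0.264 and 0.272 in KO. Arg1 fell (log2 difference -1.12, SE 0.161, adjusted p = 0.0219), with 0.241 and 0.134 in WT against 0.0250 and 0.0346. The groups did not overlap for any of the 3. Without KO2 Cox6a2 and Cxcl9 each had adjusted p = 0.0684 and 0 genes passed, Arg1 also lost its call without WT1 or KO1 (0.181 and 0.299), and without the cells outside classes 1 gene passed. With the mean of log values none of the 3 passed (adjusted p = 0.105 for Cox6a2, 0.805 for Cxcl9 and 0.924 for Arg1), and Arg1 was lost too with a pseudocount of 1, no low-value filter, only the 4 samples or summed UMIs.

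The 3 differences can be traced to classes. Of the Cox6a2 difference of 1.47 UMIs per 10000 at the fixed makeup, 1.28 came from pDC-like and 0.154 from cDC2-like cells. Cox6a2 is one of the genes that define the pDC-like cluster, so the pDC-like part is a level and not a finding from the clusters. For Cxcl9, -0.24 of -0.41 came from cDC1-like cells, where it was at 11.1 and 13.7 in WT and 5.37 and 6.50 in KO, and -0.15 from the pooled other cells. The cDC1-like class, with 16 cells in KO1, was too small for a test. For Arg1, -0.13 of -0.16 came from the pooled other cells.

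Blocked by channel, 31 genes passed at the fixed makeup (0.343%), 11 higher and 20 lower in KO. Besides those above, the lower ones included C1qb, Ly6a (an interferon-inducible surface protein, 4.32 and 5.07 in WT, 3.04 and 2.99 in KO), Ifitm3 (an antiviral membrane protein, 1.19 and 1.32 against 0.649 and 0.860) and Jchain (the joining chain of secreted antibody). Jchain had the largest difference, -3.65 on the log2 scale, from 0.703 and 3.19 to 0.00266 and 0.0638, with -1.91 UMIs per 10000 of its difference in the pooled other cells. In that pool the cluster led by Jchain held 3 and 13 cells in WT and 0 and 3 in KO. The other 4 plasma cell markers over the node summed to 2.28 and 2.80 in WT and 1.85 and 2.39 in KO, with overlap of the genotypes. Both KO mice lay below both WT mice for 2 of these 4 (17.6% of all genes tested over all cells). Of the 4, Mzb1 was itself among the 20 lower genes at the fixed makeup. It was at 1.43 and 1.69 in WT and 1.04 and 1.17 in KO (log2 difference -0.45, adjusted p = 0.0275 with the block). The higher ones included Gzma and Gzmb, the granzymes of cytotoxic cells. Gzma was at 0.220 and 0.446 in WT and 0.841 and 1.23 in KO (log2 difference 1.42, SE 0.114, adjusted p = 3.83e-07 with the block), of which NK-like cells held 0.676 of a difference of 0.703 UMIs per 10000. Gzma is one of the genes that define the NK-like cluster, so that part is a level and not a finding from the clusters. NK-like cells were 10 and 24 in WT, against 10 and 12 in KO, too few for a test, with Gzma at 13 and 20.5 against 45.3 and 67.8 and Ccl5 at 67.3 and 91.7 against 153 and 173. Ccl4, a chemokine that draws T and NK cells, was at 1.40 and 2.89 in WT and 3.25 and 3.74 in KO (log2 difference 0.76, adjusted p = 0.00256 with the block). The cDC2 gene Cd209a, which helps define the cDC2-like cluster, was at 0.507 and 0.439 against 0.924 and 0.775 and passed with the block as well (adjusted p = 0.00120).

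Type I interferon response genes had a median log2 difference below 0 in each of the 8 classes tested (-0.71 to -0.19), and over all cells 0 of 15 were above 0, with a median of -0.42 against 0.01 for all genes. At the fixed makeup 0 of 15 were above 0 with a median of -0.43, and both KO mice lay below both WT mice for 8 of 15 (background 14.7%). None passed without the block (lowest adjusted p = 0.945), and 4 of 15 passed with it, all lower in KO, against 0.343% of all genes. Ifi27l2a, a mitochondrial interferon-induced protein, was at 4.86 and 7.58 in WT and 3.63 and 4.59 in KO (log2 difference -0.56, SE 0.0787, adjusted p = 6.26e-04 with the block). Isg15, whose promoter holds 3 matches, was at 0.539 and 1.63 in WT and 0.377 and 0.552 in KO (-0.92, adjusted p = 0.00495 with the block), so KO2 lay just above WT1. Ifit3 was at 0.0720 and 0.260 against 0.0170 and 0.0654 (-0.84, adjusted p = 0.00962 with the block), and Irf7, with 0 matches, at 0.716 and 0.928 against 0.466 and 0.594 (-0.55, adjusted p = 0.0197 with the block). For Isg15 and Ifit3 WT2 was far above the other 3 mice. Without WT2 the list median was -0.16 with 5 of 15 genes above 0 at the fixed makeup, and over all cells -0.09 with 4 of 15 above 0.

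**Figure D3:**
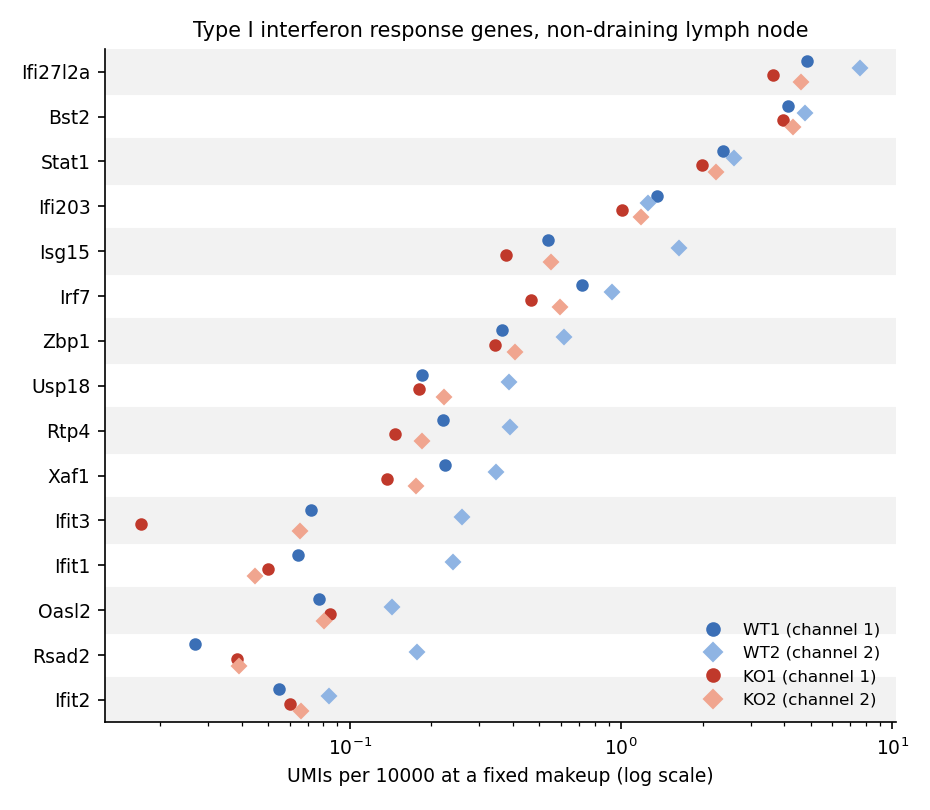
Level per mouse of the 15 type I interferon response genes tested (x axis, UMIs per 10000 at the fixed makeup, log scale), 1 point per mouse. WT2 is the highest mouse for most of the genes, and both KO mice lie below both WT mice for 8 of 15.

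Within classes, T cells are described first. In CD8 T-like cells 0 of 6392 genes passed (0%), against 299 at an unadjusted p under 0.05 by limma, and 11 passed when blocked by channel (0.172%). Ly6a was at 1.08 and 1.82 in WT and 0.471 and 0.831 in KO (log2 difference -1.05, adjusted p = 0.0748, and 3.77e-06 with the block). Ifi27l2a was at 4.44 and 7.09 against 2.60 and 4.42, Isg15 at 0.647 and 1.54 against 0.311 and 0.630, and Xaf1, a proapoptotic interferon-induced protein, at 0.320 and 0.572 against 0.128 and 0.178 (adjusted p = 1.45e-04 for Isg15 and 0.00646 for Xaf1 with the block). The groups did not overlap for any of these 4, but for Ifi27l2a and Isg15 KO2 lay only just below WT1. Of the 12 type I interferon genes tested in CD8 T-like cells 0 were above 0 (median -0.71), and both KO mice lay below both WT mice for 6 (background 13.2%). In the other direction Il7r, the IL-7 receptor of naive and memory T cells, was at 2.58 and 2.21 in WT and 5.04 and 2.99 in KO (adjusted p = 2.11e-05 with the block).

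In CD4 T-like cells 1 of 5874 genes passed (0.0170%), against 351 at an unadjusted p under 0.05. Hspa8, a constitutive HSP70 chaperone, rose (log2 difference 0.49, SE 0.0861, adjusted p = 0.0350), from 23.5 (WT1) and 23.3 (WT2) to 30.0 (KO1) and 36.1 (KO2). The call was lost without WT1 (adjusted p = 0.267), WT2 (0.306) or KO2 (0.547). It was also lost with only the 4 non-draining samples, with summed UMIs, with the mean of log values (0.770, the highest), with no low-value filter and with cells under 5% mitochondrial UMIs. Hspa1a, the inducible HSP70, was at 1.15 and 0.963 in WT and 2.25 and 2.30 in KO (adjusted p = 0.321), and Tcf7, the TCF1 factor of naive T cells, at 4.56 and 5.45 against 3.51 and 2.72 (adjusted p = 0.321). Hspa8 stood the same way round in CD8 T-like cells (24.4 in both WT mice, 27.9 and 30.7 in KO, adjusted p = 7.26e-04 with the block) and in B-like cells (28.0 and 31.1, 33.7 and 38.9, adjusted p = 0.0139 with the block).

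Cluster 8, which carried markers of regulatory T cells (Ctla4, Ikzf2) beside the helper gene Cd40lg, and cluster 14, which carried T cell markers with Eomes, were kept by number. In cluster 8, 0 of 6977 genes passed (365 at an unadjusted p under 0.05 by limma) and 5 did with the block (0.0717%), of which Il2 and Ctla4 define the cluster. Cd74 was at 7.95 and 13.3 in WT and 4.58 and 5.69 in KO (adjusted p = 0.405, and 0.00102 with the block), and 0 of 6 MHC class II genes were above 0. Map4, a microtubule-binding protein, was at 0.436 and 0.355 in WT and 1.61 and 1.62 in KO (log2 difference 1.79, adjusted p = 0.117, and 0.00493 with the block). In cluster 14, 1 of 6934 genes passed (0.0144%). Gm42418, a transcript that overlaps a ribosomal RNA repeat, fell (log2 difference -1.38, SE 0.106, adjusted p = 8.09e-13), with 231 and 218 in WT against 67.0 and 111 in KO. Levels of Gm42418 went the other way in CD8 T-like cells, 80.3 and 116 in WT against 90.0 and 139 in KO (adjusted p = 4.78e-08 with the block).

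In B-like cells, the largest class by weight, 0 of 5647 genes passed (393 at an unadjusted p under 0.05 by limma), and 3 did with the block (0.0531%). Beside Hspa8 these were Dnaja1, an HSP40 co-chaperone (5.68 and 8.73 in WT, 7.96 and 12.9 in KO), and Rbm3, a cold-inducible RNA-binding protein (7.17 and 7.25 against 5.28 and 4.94, log2 difference -0.49, adjusted p = 0.0139 with the block). For Dnaja1 the genotypes overlapped, and the KO mouse was above the WT mouse of its own channel in both channels. Over all cells 16 of 16 immediate early and heat shock genes were above 0, with a median of 0.22, and 14 of 16 at the fixed makeup, with 0 past the threshold. Without WT1 6 of 16 were above 0 over all cells, and without KO2 8 of 16. Of 7 glucocorticoid-responsive genes 7 were above 0 both ways. Among all genes 52.9% were above 0 over all cells and 51.2% at the fixed makeup. The summed level of the 7 genes was 4.12 and 5.14 in WT and 7.74 and 5.58 in KO over all cells. At the fixed makeup it was 4.39 and 5.29 in WT against 7.58 and 5.24 in KO, high in KO1 alone. Tsc22d3, the glucocorticoid-induced leucine zipper, was at 2.22 and 2.60 in WT and 4.44 and 3.07 in KO.

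In pDC-like cells 2 of 8156 genes passed (0.0245%), against 625 at an unadjusted p under 0.05. Ly6a fell (log2 difference -0.89, SE 0.134, adjusted p = 0.00697), from 23.6 (WT1) and 28.7 (WT2) to 13.3 (KO1) and 14.6 (KO2), and the call was lost with the block (adjusted p = 0.372) and without KO1 (0.303) or KO2 (0.104), as well as with no low-value filter, only the 4 samples or classes at resolution 2. The other was Cox6a2, at 17.0 and 13.6 in WT and 38.7 and 47.4 in KO (log2 difference 1.49). Because Cox6a2 is one of the genes that define the pDC-like cluster, this is a level and not a finding from the clusters. Hsph1, an HSP110 chaperone, was at 0.670 and 0.899 in WT and 2.08 and 2.44 in KO (adjusted p = 0.153). The mitochondrial gene mt-Cytb stood at 44.2 and 46.8 against 31.7 and 29.8, and Irf7 at 3.98 and 3.87 against 2.46 and 2.33, and neither passed. Of 11 type I interferon genes tested in these cells 1 was above 0 (median -0.60) and both KO mice lay below both WT mice for 5 (background 16.4%).

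In cDC2-like cells Cox6a2 was nearly absent from WT, at 0.0679 (WT1) and 0 (WT2), and was at 3.83 (KO1) and 1.62 (KO2) in KO. It rose (log2 difference 4.33, SE 0.472, adjusted p = 7.88e-04), kept an adjusted p of at most 0.0455 when any 1 mouse was left out, lost its call with no low-value filter (adjusted p = 0.131), and is no defining gene of this class. It was 1 of 2 genes past the threshold among 8167 (0.0245%), against 432 at an unadjusted p under 0.05, and the other, Lyz1, defines a cluster of the class. The other 5 markers of pDC summed to 16.4 and 17.6 UMIs per 10000 in the WT cDC2-like cells and to 18.5 and 21.5 in the KO ones, with both KO mice above both WT mice for 2 of 5 (17.9% of all genes tested in the class) and 0 of 5 at 0, and their part in the result was not tested. In the draining node Cox6a2 was at 0 and 0.0408 in WT and 2.20 and 0.996 in KO in cDC2-like cells, and at 21.6 and 15.1 against 36.7 and 39.9 in pDC-like cells. It was at 0 in cDC1-like cells of all 4 non-draining nodes. Cox6a2 lies at chr7:128205435-128206387 on the minus strand (mm10, GENCODE M21), 54.8 kb from Itgax, the CD11c gene of dendritic cells. Of the 46 tested genes within 1 Mb of Havcr2 or Itgax 27 were above 0 at the fixed makeup, and Cox6a2 was the 1 past the threshold. Itgax itself was at 1.82 and 1.28 in WT and 0.793 and 0.938 in KO in cDC2-like cells (adjusted p = 0.850).

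With the block 7 genes passed in cDC2-like cells (0.0857%). Ccl4 was at 1.14 and 3.79 in WT and 15 and 9.62 in KO (log2 difference 2.46, adjusted p = 0.153, and 0.0137 with the block). Cxcl9 was at 0.491 and 0.805 in WT and at 0 in both KO mice (adjusted p = 0.0437 with the block), C1qb at 0.499 and 3.16 against 0.0745 and 0.0766 (0.0451), and Gngt2, a G protein subunit of patrolling monocytes, at 1.45 and 1.35 against 0.333 and 0.263 (0.0451). The 4 macrophage markers other than the C1q genes summed to 3.13 and 4.18 in WT and 3.18 and 2.02 in KO in these cells, with both KO mice lower for 2 of 4 (16.4% of all genes tested in the class), and their part in these results was not tested. Egr1, an immediate early transcription factor, was at 0.210 and 0.244 in WT and 0.876 and 0.954 in KO (adjusted p = 0.153).

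In mature DC-like cells, 0 of 6977 genes passed (282 at an unadjusted p under 0.05 by limma) and 16 did with the block (0.229%), while without KO1, which leaves the 28 cells of KO2, 431 did. Ccl5, a chemokine of T cells and the most abundant chemokine of these cells, was at 387 (WT1) and 268 (WT2) against 195 (KO1) and 143 (KO2). The log2 difference was -0.95 (SE 0.0975 with the block, adjusted p = 1.92e-18 with the block and 0.986 without). Over all cells the Ccl5 difference was -36.4 UMIs per 10000, of which 58.3% was makeup and -18 came from within mature DC-like cells. Il1b, the substrate that the inflammasome matures, was at 0.0751 and 0.375 in WT and 0.832 and 1.53 in KO (log2 difference 2.10, adjusted p = 2.55e-05 with the block and 0.986 without). Nr4a3, a nuclear receptor linked to dendritic cell migration, was at 0.267 and 1.75 against 1.81 and 3.06, and Fabp5, a fatty acid carrier, at 4.33 and 11.6 against 9.90 and 20.3. For Fabp5 the genotypes overlapped, and for Nr4a3 KO1 lay just above WT2. Cd74 was at 84.5 and 88.0 in WT and 125 and 108 in KO, and H2-Ab1, an MHC class II chain, at 3.25 and 5.01 against 9.68 and 5.30 (adjusted p = 0.0355 and 0.00742 with the block). Of 9 MHC class II genes 8 were above 0 (median 0.43, all genes -0.10), and both KO mice lay above both WT mice for 5 (background 12.1%). CD8 T cell markers in these cells summed to 0.236 and 0.414 in WT and 0.767 and 1.79 in KO, B cell markers to 0.510 and 0.537 against 0.0928 and 0.199 (both KO mice below both WT mice for 6 of 6, against 22.5% of all genes tested here), and macrophage markers to 1.15 and 0.426 against 1.46 and 0.958, and their part in these results was not tested.

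**Figure D4:**
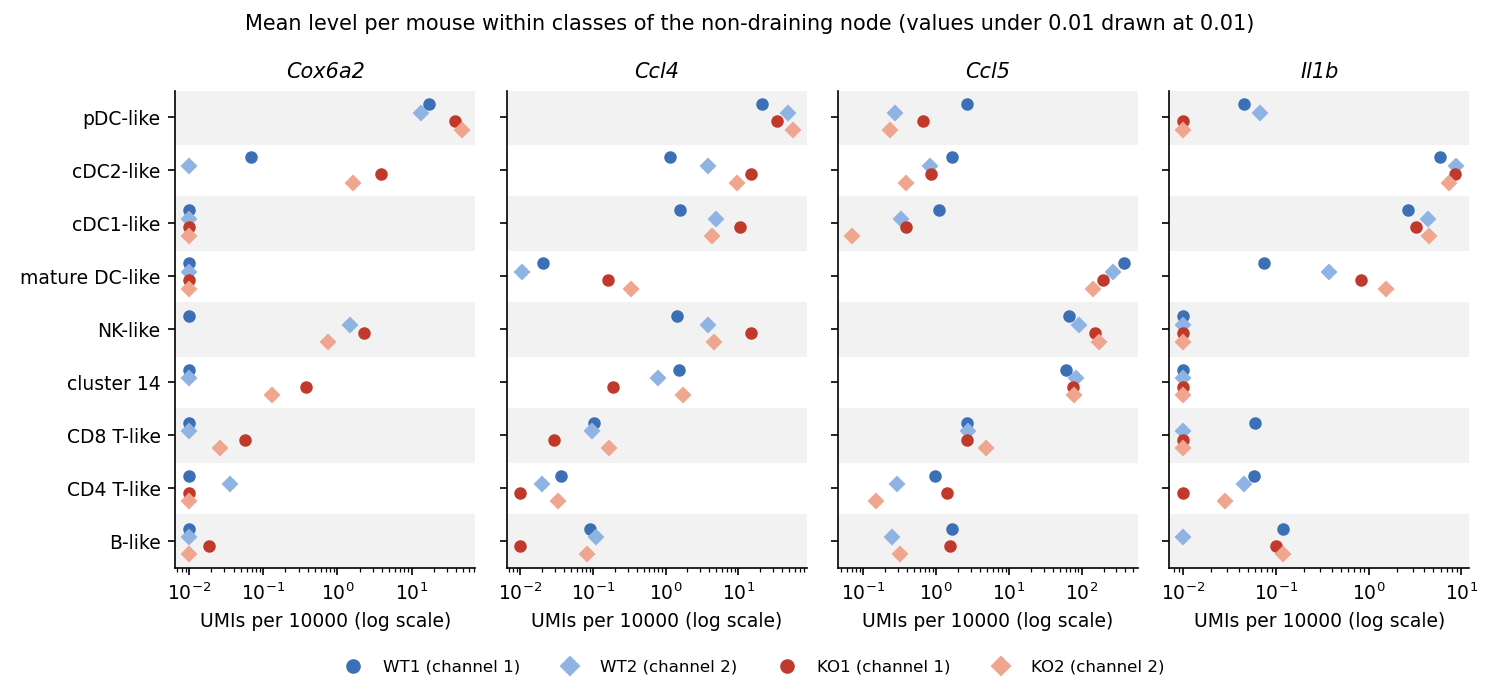
Mean level per mouse of Cox6a2, Ccl4, Ccl5 and Il1b (x axes, UMIs per 10000, log scale, values under 0.01 drawn at 0.01) within 9 classes (y axis). Cox6a2 is higher in both KO mice in pDC-like and cDC2-like cells, and Ccl5 is lower in both KO mice in mature DC-like cells and higher in NK-like cells.

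Inflammasome and IL-1 family genes, the subject of the series title, showed no shared direction over the node. Of the 12 tested 6 were above 0 over all cells (median -0.03) and 7 at the fixed makeup (median 0.02), and 0 passed by either (lowest adjusted p = 0.418 and 0.999). Over all cells Il1b was at 0.676 and 1.11 in WT and 0.639 and 0.908 in KO (log2 difference -0.17, adjusted p = 0.900), and in cDC2-like cells, its main source among the classes tested, at 5.92 and 8.70 against 8.43 and 7.40. Casp1, the inflammasome protease, was at 0.211 and 0.263 in WT and 0.289 and 0.210 in KO. Il18 and Nlrp3, the IL-18 gene and an inflammasome sensor, were under the minimum level, at 0.0264 and 0.0276 against 0.0313 and 0.0090 and at 0.0385 and 0.0123 against 0.0335 and 0.0081. Cd274, the PD-L1 gene, was at 0.234 and 0.240 in WT and 0.144 and 0.191 in KO, and Ccr7, the homing receptor for the node, at 5.30 and 6.08 against 6.79 and 5.85. At this depth differences of low genes such as Il18 and Nlrp3 were not detectable.

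Whether the genotype difference itself differed between the nodes was tested on the difference of non-draining minus draining node within each mouse, which has 2 residual degrees of freedom. Of 9023 genes 163 passed (1.81%), 47 with a higher and 116 with a lower KO minus WT difference in the non-draining node, against 1048 at an unadjusted p under 0.05. At the fixed makeup 18 of 9029 passed (0.199%), 3 higher and 15 lower, and 17 of these were among the 163. With the pairing of the nodes of a mouse ignored, 2 passed. Type I interferon genes were 0 of 15 above 0 (median -0.98, all genes -0.03), and 10 passed as lower. At the fixed makeup 7 passed as lower (Ifit3, Isg15, Ifit1, Rtp4, Irf7, Xaf1 and Ifi27l2a), with a median of -0.96.

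Irf7 shows the crossing. In the non-draining node it was at 0.744 (WT1), 0.882 (WT2), 0.478 (KO1) and 0.623 (KO2), and in the draining node at 0.539, 0.742, 1.19 and 1.19, so both KO mice were below both WT mice in the first and above them in the second (difference of differences -1.31, SE 0.152, adjusted p = 8.89e-04). Isg15 was at 0.535 and 1.67 in WT and 0.396 and 0.557 in KO in the non-draining node, and at 0.624 and 0.725 against 0.991 and 1.00 in the draining node (-1.40, SE 0.306, adjusted p = 0.0424). The Isg15 call was lost without KO1 (adjusted p = 0.218) or KO2 (0.0671). Ifi27l2a was at 4.46 and 7.51 against 3.62 and 5.14 in the non-draining and at 4.73 and 6.68 against 7.44 and 9.67 in the draining node, and Ifit3 at 0.0665 and 0.256 against 0.0205 and 0.0718 and then 0.0566 and 0.0958 against 0.223 and 0.263. In the draining node both KO mice lay above both WT mice for each of these 4 genes, and in the non-draining node WT2 was the highest mouse for each.

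The complement gene C1qb crossed as well. C1qb, at 0.755 and 0.553 in WT and 0.158 and 0.0684 in KO in the non-draining node, was at 0.323 and 0.0702 in WT and 0.663 and 0.443 in KO in the draining node (difference of differences -3.10). In the cells outside classes C1qb was at 21.8 and 9.33 in WT and 0 in both KO mice in the non-draining node, and at 1.64 and 0 in WT against 11.5 and 2.55 in KO in the draining node. Cxcl9 was at 0.415 and 0.220 in WT and 0.357 and 0.285 in KO in the draining node, without separation of the genotypes there. Ccl5 and Fscn1, by contrast, were lower in KO in both nodes, with a wider gap in the draining one: Ccl5 was at 57.2 and 51.9 against 11.6 and 5.19 there, and Fscn1 at 17.9 and 11.7 against 4.26 and 1.04. Of 10 MHC class II genes 9 passed as lower in the non-draining relative to the draining node (1.81% of all genes passed), and 0 passed at the fixed makeup (0.199% of all genes; median -0.05).

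**Figure D5:**
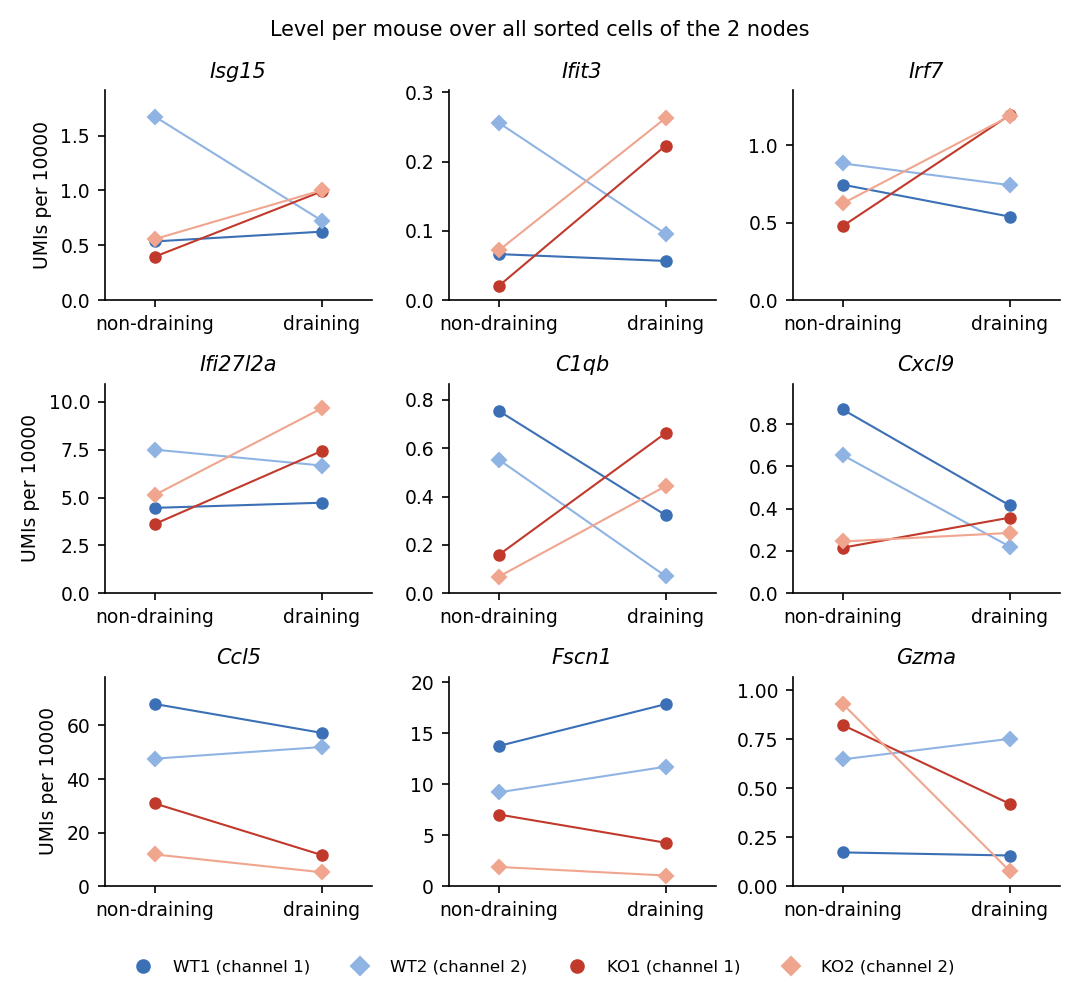
Level per mouse of 9 genes (y axes, mean UMIs per 10000 over all sorted cells, from 0) in the non-draining and the draining node, lines joining the nodes of a mouse. The KO lines rise and the WT lines stay level or fall for Irf7, Ifit3 and C1qb, while for Ccl5 and Fscn1 KO lies below WT in both nodes.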

How the data were processed

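Single-cell 5' RNA was sequenced on the 10x platform in 2 channels. The submitters' processing notes name Cell Ranger 3.0.2 and mm10. How cells and genes were filtered, tags assigned and doublets treated is not stated there. The matrix the authors deposited holds the natural log of 1 plus a gene's UMIs per 10000 in a cell (12638 genes, 12458 cells). Values were back-transformed: they summed to 10000 in every cell and 100% were whole multiples of 1 UMI (tolerance 0.01). Node cells held 687 to 74092 UMIs, so genes low in a cell were often not detectable. No doublet caller was run and no cell was removed; 201 node cells had 5% or more mitochondrial UMIs. The deposited unit being a log value, no count model was fitted.

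Levels were averaged per mouse, and log2(level + 0.1) was fitted in limma 3.58.1 (R 4.3.3, trend) over 8 node samples in 4 groups of 2. The pairing of the 2 nodes of a mouse was not modelled in this fit. Genes needed a mean level of 0.05, or within a class a UMI in 5% of cells, and classes 20 cells in each non-draining sample. P-values are two-sided and Benjamini-Hochberg adjusted at 0.05 over all genes of each of 11 comparisons. Class shares were fitted on the logit scale. Clusters came from scanpy 1.11.5 (2000 variable genes, 30 components, 15 neighbours, leidenalg 0.10.2, resolution 1, seed 0, 27 clusters, Python 3.11.15). Within a class, genes defining its clusters stayed in the counts and were not read as findings. Over all cells, at the fixed makeup and between nodes no gene was set aside for defining a cluster. The fixed makeup weights classes with at least 5 cells in each of the 8 samples.

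Mice of the same number shared a channel, which the labels give, so the number pairs a WT with a KO mouse. Deviations of mice of a channel correlated by 0.278 over all cells, by 0.225 at the fixed makeup and by 0.004 to 0.133 within classes. Fits with the channel as a block used the 4 non-draining samples.

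The genes named are Havcr2 and, per comparison, those past the threshold without overlap of the groups, by size of the difference (up to 12 in each direction, 6 within a class). Where fewer than 5 passed, those of smallest p are given as values (5 in each direction, 3 within a class). Members of lists past the threshold, the 5 genes in each direction with the largest makeup part and 12 genes fixed by name, Il1b and Casp1 among them, were added; genes passing only with the block, and those of the makeup account, are given as a further description chosen after their values were seen. The members, the 21 gene lists and the tests were chosen with earlier results of these data known. Replicates within a group are separate mice. The fit over all cells was also run on counts simulated independently at the real mean levels and depths. These had the same dispersion for every gene and no differences of makeup, channel or mouse. It recovered 72.7% of 2-fold and 100% of 4-fold changes over 9002 genes, with 3 false calls among 170. The real mice differed in makeup, so these shares do not give the power of the real fit. Alternatives are given in the closing section.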

Additional observations from a re-analysis of the deposited data

Results flagged for a closer look

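The genotype difference of the genes below was not the same in the 2 nodes, by the test of the KO minus WT difference in the non-draining node minus that in the draining node (limma on the within-mouse difference, log2 scale, 2 mice per genotype). Over all cells the values above 0, where KO stood relatively higher in the non-draining node, were 2.20 for S100a9, 1.86 for S100a8, 1.73 for Gzma, 1.5 for Fxyd2, 1.44 for Clu, 1.29 for Zmynd15, 1.25 for H2-M2, 1.23 for Ccl5, 1.16 for Mfge8, 1.11 for Fscn1, 1.03 for Arhgap31 and 1.01 for Ccl22. Without KO2 Gzma lost its call (adjusted p = 0.0553), and without KO1 so did Mfge8 (0.0658) and Ccl22 (0.140).

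S100a9, a neutrophil gene, was at 0 and 0.0160 in WT and 0.00280 and 0.00581 in KO in the non-draining node, and at 0.352 and 0.412 in WT and 0.00337 and 0 in KO in the draining node, so its value rests on the draining nodes of the WT mice.

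Values below 0 over all cells were -3.10 for C1qb, -2.48 for C1qc, -2.36 for C1qa, -1.91 for Ifitm3, -1.73 for Ifit3, -1.67 for Arg1, -1.57 for Lyz1, -1.42 for Cxcl9, -1.40 for Ly6i, -1.40 for Isg15, -1.31 for Irf7 and -1.30 for AF251705. Without KO1 Ly6i (adjusted p = 0.111), AF251705 (0.0553) and Isg15 (0.218) lost their calls.

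At the fixed makeup the values were -2.68 for C1qb, -2.41 for C1qc, -2.18 for C1qa, -1.79 for Ifit3, -1.70 for Isg15, -1.52 for Arg1, -1.47 for Ifit1, -1.31 for Rtp4, -1.08 for Irf7, -1.06 for Xaf1, -0.99 for Ifitm3, -0.96 for Ifi27l2a, -0.81 for Ly6a, -0.70 for Jun and -0.37 for Gm42418, and 1.59 for Fxyd2, 1.89 for S100a8 and 2.27 for S100a9.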

How the results depend on the processing

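With the channel as the replicate block, the genes past the threshold were 4 over all cells (1 without), 31 at the fixed makeup (3), 3 in B-like (0), 2 in CD4 T-like (1), 11 in CD8 T-like (0), 7 in cDC2-like (2), 3 in cluster 14 (1), 5 in cluster 8 (0), 16 in mature DC-like (0) and 1 in pDC-like cells (2). The node comparison, whose block is the mouse, gave 2 without that replicate block (163 with it), 41 with no low-value filter and 18 at the fixed makeup, where Lef1 (-0.0359), H2-DMa (0.0147) and H2-DMb2 (0.0185) changed sign. Leaving out each mouse gave 0 to 183 over all cells, 0 to 13 at the fixed makeup, 0 to 3 in B-like, 0 to 2 in CD4 T-like, 0 to 11 in CD8 T-like, 2 to 5 in cDC2-like, 1 to 8 in cluster 14, 0 to 3 in cluster 8, 0 to 431 in mature DC-like and 1 to 25 in pDC-like cells, and 81 to 192 in the node comparison. Other counts that moved by over 1.5 times were these. Over all cells 0 passed with no filter, with only the 4 non-draining samples, with summed UMIs, with the mean of log values and without cells outside the classes, an alternative added after seeing the data. At the fixed makeup 6 passed with only the 4 samples, 0 with the mean of log values and 1 without outside cells. In CD4 T-like cells 0 passed with no filter, the 4 samples, summed UMIs, the mean of log values or under 5% mitochondrial UMIs. In CD8 T-like cells 4 passed with the 4 samples and 1 with summed UMIs. In cDC2-like cells 1 passed with a pseudocount of 1, 0 with no filter, 8 with the 4 samples and 4 with summed UMIs. In cluster 14, 2 passed with summed UMIs. In cluster 8, 1 passed with a pseudocount of 1, 5 with the 4 samples and 1 with the mean of log values. In pDC-like cells 1 passed with no filter, the 4 samples or classes at resolution 2, and 4 with the mean of log values or under 5% mitochondrial UMIs. Cell shares that changed sign as shares of their lineage (logit difference) were CD4 T-like -0.10, CD8 T-like -0.14, cDC1-like 0.21, cluster 14 -0.0888, cluster 24 0.13, cluster 8 -0.27 and pDC-like 0.64; at resolution 2 cDC2-like was -0.0298 and cluster 8 -0.10, and under 5% mitochondrial UMIs pDC-like was 0.00908. Leaving out each mouse, shares ranged from -0.48 to 0.82 (CD4 T-like), -0.75 to 0.14 (NK-like), -0.92 to 0.0324 (cDC1-like), -0.22 to 0.24 (cDC2-like), -0.0765 to 0.42 (cluster 14), -0.0556 to 0.0675 (cluster 8), -1.40 to 0.89 (cycling), -0.55 to 0.40 (pDC-like) and -2.63 to -0.56 (mature DC-like). The cause of these changes was not tested. Of the other gene values 973 kept their direction and side of the threshold, 190 no longer passed and 75 newly passed. At a median of 4633 UMIs per cell, depth limits what can be read of low genes.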
